A study of Homo sapiens with 9 samples.

Results

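The genes described here are the cyclic nucleotide phosphodiesterases (PDE1A to PDE11A), the adenylyl cyclases (ADCY1 to ADCY10), the catalytic and regulatory subunits of protein kinase A (PKA) and the transcription factors CREB1 and CREM. They were taken by symbol from the deposited table of read counts, which gave 41 rows with 40 symbols among 60649 genes. PDE11A had a second row (ENSG00000284741.1) with no count in any library. The study sequenced mRNA of MDA-MB-231, an established human triple-negative breast cancer line, in 3 groups of 3 libraries. The control group held pLKO-GFP, a vector with no hairpin against AHR, and the other groups each held 1 short hairpin RNA against AHR, the aryl hydrocarbon receptor, named shAHR#2 and shAHR#3 in the labels. Cells of all groups were infected with lentivirus, selected with puromycin and pooled as surviving cells, so no group is a single clone, and the labels name no further agent. The study compared them to see what changes when AHR is depleted. Nothing in the labels says that replicates came from separate cultures, so the p-values measure the spread between these libraries, which may be technical.

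Adenylyl cyclases make cyclic AMP from ATP after hormone receptors activate the stimulatory G protein. Cyclic AMP releases the catalytic subunits of PKA from its regulatory subunits, and PKA then phosphorylates CREB and CREM, which bind cyclic AMP response elements in target genes. Phosphodiesterases end the signal by hydrolysing cyclic AMP, cyclic GMP or both, and their families differ in substrate and in what regulates them. AHR is itself a ligand-activated transcription factor that binds DNA with its partner ARNT.

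Total counts per library ranged from 15991396 to 20374460. AHR was at 2022, 2368 and 2385 reads in the control libraries, at 792, 629 and 662 with shAHR#2 and at 900, 1019 and 912 with shAHR#3, so all 6 hairpin libraries were below all controls. Of the markers of the line, VIM, KRT8, KRT18, KRT19 and CD44 were abundant, while PGR had no read and ESR1 at most 4 in a library. ERBB2 had 974 to 1550 reads. EPCAM, also a marker of the line, was lower at 90 to 135 reads and passed no test. CDH1, another, was scarce in controls (14 to 20 reads). It was called higher under each hairpin, holding 24 to 40 reads under shAHR#2 (a log2 change of 1.00) and 72 to 94 under shAHR#3 (2.19). Of the 8 tested markers of the line, 3 were higher (37.5%) and 1 lower (12.5%) under shAHR#2, beside 32.6% and 33.2% of all genes. Under shAHR#3, 6 were higher (75%) and 1 lower (12.5%), beside 26.9% and 27.5%. The 8 include ERBB2, a receptor that the triple-negative class lacks, which was called higher under shAHR#3 (a log2 change of 0.20). Of 6 markers of other cell types, 2 rose with both hairpins, namely PECAM1 (43 to 48 reads in controls, 178 to 257 with hairpins) and PTPRC (1 to 4, then 14 to 33). CD14 fell with shAHR#2 and passed no test with shAHR#3, CD3E had no read, and RBFOX3 and CDH5 were too low to be tested. PTPRC passed the filter on low counts only through the hairpin libraries, and CD14 would not have passed without the control libraries. A difference was thus built into the entry of both. The summed level of the 6 markers was 3.30 to 3.73 CPM (counts per library size, TMM-scaled) in controls, 12.4 to 14.2 with shAHR#2 and 12.9 to 15.2 with shAHR#3. PECAM1 alone averaged 2.40 CPM in controls, 11.2 with shAHR#2 and 12.2 with shAHR#3, so it made up most of this sum. The part of these markers in the results given here was not tested.

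Promoter windows of RefSeq on GRCh38.p14, from 250 bases before to 50 after a start site, were found for 34 of the 40 symbols. GCGTG, the core of the element bound by AHR and ARNT, stood on either strand in 48 of the 101 windows of these genes (47.5%) and in 36.5% of all 34943 windows. The longer TNGCGTG, which contains GCGTG, stood in 6 member windows (5.94%) and in 5.5% of all. The cyclic AMP response element TGACGTCA stood in 6 member windows (5.94%), belonging to CREM, PDE4A, PDE7B and PRKAR1A, and in 1.84% of all. The CREM windows with it overlap and share the same site, and those of PRKAR1A also overlap, so windows are not separate sites. TGACG, its shorter form, stood in 24 member windows (23.8%) and in 24.5% of all. Shown here are windows of PDE1C, which lost nearly all of its reads with both hairpins, of PDE2A, which rose with both, and of CREM, which moved in opposite directions. Capitals mark GCGTG and TGACG on either strand, and TGACGTCA stands whole in capitals. A match describes the letters only, and no binding was measured.
PDE1C, chr7:32070979-32071278, minus strand: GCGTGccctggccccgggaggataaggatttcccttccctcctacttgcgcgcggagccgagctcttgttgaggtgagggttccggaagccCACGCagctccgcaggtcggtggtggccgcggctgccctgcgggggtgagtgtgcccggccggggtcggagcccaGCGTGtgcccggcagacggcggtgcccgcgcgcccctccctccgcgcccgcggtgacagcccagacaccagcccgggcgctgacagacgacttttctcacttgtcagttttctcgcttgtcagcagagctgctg
PDE1C, chr7:32071387-32071686, minus strand: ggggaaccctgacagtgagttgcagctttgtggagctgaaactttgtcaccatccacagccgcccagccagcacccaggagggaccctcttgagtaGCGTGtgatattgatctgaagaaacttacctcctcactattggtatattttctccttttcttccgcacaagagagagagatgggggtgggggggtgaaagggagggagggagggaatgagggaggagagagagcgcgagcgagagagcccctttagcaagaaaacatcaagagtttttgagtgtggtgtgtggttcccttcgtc
PDE2A, chr11:72674373-72674672, minus strand: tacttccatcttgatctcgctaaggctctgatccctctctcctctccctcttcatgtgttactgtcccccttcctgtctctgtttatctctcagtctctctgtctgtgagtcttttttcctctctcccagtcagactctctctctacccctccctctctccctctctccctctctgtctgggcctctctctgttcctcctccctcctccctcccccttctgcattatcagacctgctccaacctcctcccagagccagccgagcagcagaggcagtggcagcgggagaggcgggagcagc
CREM, chr10:35195652-35195951, plus strand: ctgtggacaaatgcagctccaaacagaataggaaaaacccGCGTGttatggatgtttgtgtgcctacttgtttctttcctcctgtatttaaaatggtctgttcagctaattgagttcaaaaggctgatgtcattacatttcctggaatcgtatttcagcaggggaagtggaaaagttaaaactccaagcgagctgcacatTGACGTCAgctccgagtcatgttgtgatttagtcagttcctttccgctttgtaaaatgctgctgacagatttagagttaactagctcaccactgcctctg
The first PDE1C window holds GCGTG 3 times. The second holds it once, within TNGCGTG, 154 bases before the start site (position -154). Of the 6 PDE1C windows, 5 hold GCGTG. Among these, the window at chr7:32070813-32071112 overlaps the first window shown and its GCGTG is a site of that window too. The first window shown holds the most GCGTG of the 6, and only the second holds TNGCGTG. The PDE2A window holds neither motif, and the CREM window holds 1 GCGTG and 1 TGACGTCA. Apart from the window that overlaps it, the other CREM windows hold no TGACGTCA.

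Most of the tested members passed an adjusted p of 0.05 with each hairpin, in both directions, as did most genes. The shares were 75% with shAHR#2 and 85.7% with shAHR#3, beside 65.8% and 54.4% of all genes. Of the 41 rows, 28 passed edgeR's filter on low counts and were tested, 7 had reads but too few, and 6 had none. PDE1C passed the filter only through its control libraries, and PDE3A only through the hairpin libraries, so a difference was built into their entry. With shAHR#2, 12 of the 28 tested members were higher (42.9%) and 9 were lower (32.1%) at an adjusted p under 0.05, beside 32.6% higher and 33.2% lower among all 14274 genes tested. With shAHR#3, 10 were higher (35.7%) and 14 lower (50%), beside 26.9% and 27.5% of all genes. The shAHR#3 libraries differed from the shAHR#2 libraries in 18 members, 9 higher (32.1%) and 9 lower (32.1%), beside 21.9% and 20.4% of all genes. A called log2 fold change of at least 1 in either direction was reached by 5 of the 28 members with shAHR#2, beside 11.8% of all genes. With shAHR#3 it was reached by 3 of 28, beside 6.73%, and between the hairpins by 4 of 28, beside 3.71%. With PDE1C and PDE3A left out, these numbers were 3, 1 and 3, and the members past the threshold of 0.05 numbered 19, 22 and 17. Of the latter, 11 were higher and 8 lower with shAHR#2, 9 and 13 with shAHR#3, and 8 and 9 between the hairpins. The median log2 fold change of the members was 0.06 with shAHR#2 and -0.07 with shAHR#3, against a median near 0 for all genes, and their median average level was 4.78 log2 CPM against 4.46. Without shAHR#3 replicate 2, the members called lower with that hairpin numbered 9.

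**Figure D1:**
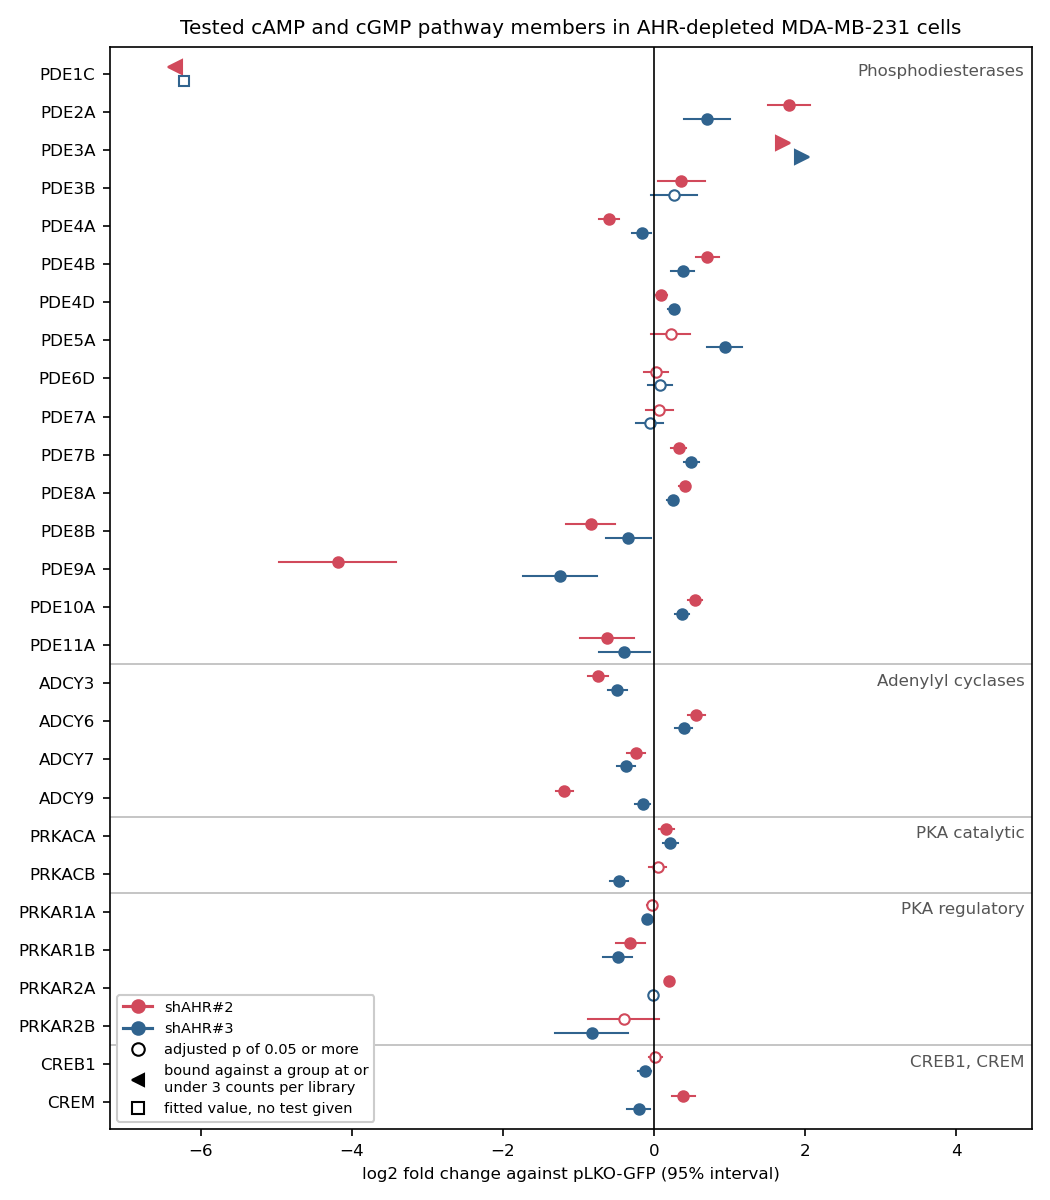
Log2 fold change against pLKO-GFP (x axis) of the 28 tested members (y axis, by role) with shAHR#2 in red and shAHR#3 in blue. Bars are 95% intervals, filled points passed an adjusted p of 0.05, arrowheads are bounds against a group at or under 3 counts per library, and the open square is a fitted value with no test. PDE1C and PDE9A lie far to the left, PDE2A and PDE3A to the right, and most others lie within 1 of 0.

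Against the control, 9 members were higher with both hairpins (ADCY6, PDE10A, PDE2A, PDE3A, PDE4B, PDE4D, PDE7B, PDE8A and PRKACA), beside 21.9% of all genes tested, and 9 were lower with both (ADCY3, ADCY7, ADCY9, PDE11A, PDE1C, PDE4A, PDE8B, PDE9A and PRKAR1B), beside 22.6%. CREM passed the test in opposite directions, as did 2.03% of all genes. PDE3B and PRKAR2A passed it with shAHR#2 alone, and CREB1, PDE5A, PRKACB, PRKAR1A and PRKAR2B with shAHR#3 alone. PDE6D and PDE7A passed it with neither. The share of all genes called with 1 hairpin alone was not counted. In the direct test the hairpins differed for PRKAR2A, CREB1, PDE5A and PRKACB. For PDE3B, PRKAR1A and PRKAR2B no difference between the hairpins was called, so a call with 1 hairpin alone does not set the hairpins apart there. Both hairpins were compared with the same control libraries, so these counts are not independent of each other. They include PDE3A and PDE1C, for which a difference was built into their entry.

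By mRNA level per length, the transcripts of catalytic phosphodiesterases were mainly those of the cyclic AMP-specific PDE4, PDE7 and PDE8 families. Protein and enzyme activity were not measured in these data. Levels were compared between genes as CPM per kilobase of exon (RPKM), with the union of annotated exons as length. PDE8A, a cyclic AMP-specific enzyme of high affinity, had the highest level in the control at 12.1 ± 0.515 RPKM (SD, n = 3) and made up 29.8% of the summed phosphodiesterase level, with PDE7B at 16.5%, PDE4D at 15.7% and PDE4A at 15.2%. The order of these last genes follows the length used, because with the longest annotated transcript as length PDE7B was at 10.9%, PDE4D at 18.6% and PDE4A at 12.6%. PDE10A, which hydrolyses both cyclic nucleotides, went from 3.78% to 9.20% by the same change of length. PDE6D was left out of the sum, as it is a chaperone for prenylated proteins and no enzyme. Summed, control libraries held 40.7 ± 0.38 RPKM, shAHR#2 libraries 45.4 ± 0.56 and shAHR#3 libraries 46.4 ± 1.26 (SD, n = 3 each). The share of PDE8A was 35.2% with shAHR#2 and 31.0% with shAHR#3. PDE4A took 9.01% with shAHR#2 and 11.9% with shAHR#3, below its control share in each, and PDE1C went from 2.71% to 0 and 0.030%.

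**Figure D2:**
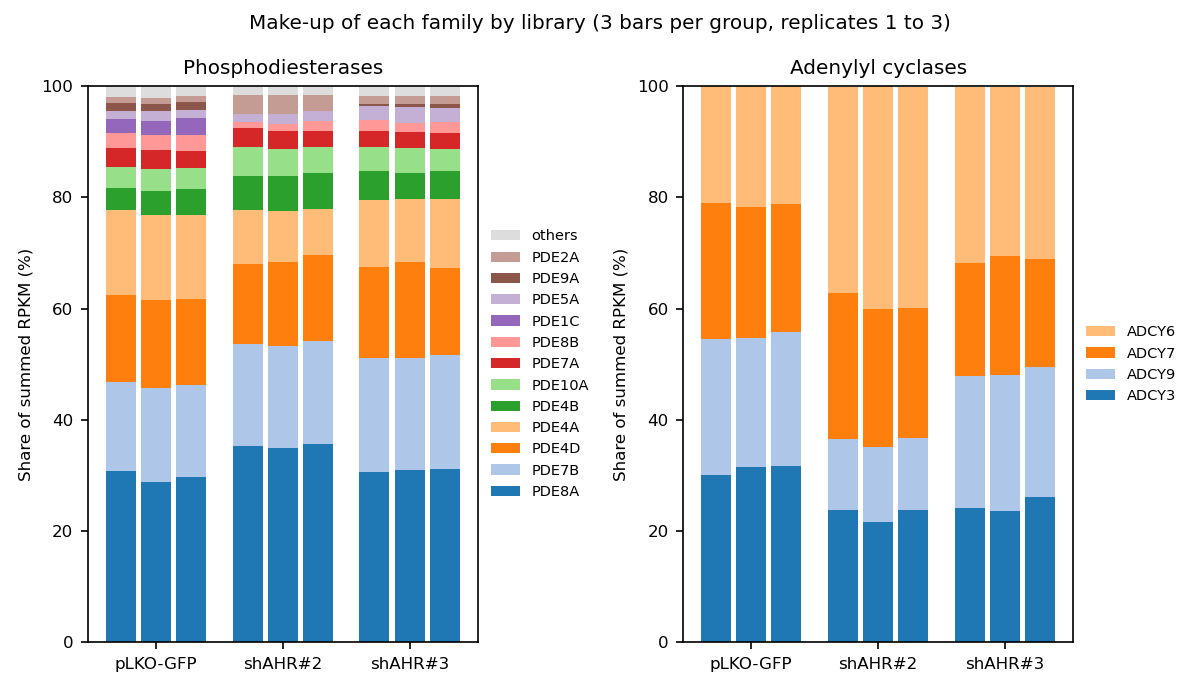
Share of each gene in the summed RPKM of its family (y axis, percent) in each library (x axis, 3 bars per group), for phosphodiesterases without PDE6D on the left and for the 4 tested adenylyl cyclases on the right. PDE8A is the largest phosphodiesterase share in each library, the PDE1C band is lost with both hairpins, and the ADCY6 band widens from 21.3% to 38.9% and 31.0%.

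PDE1C, a calcium and calmodulin-stimulated enzyme that hydrolyses both cyclic nucleotides, was the member with the largest change with either hairpin. The gene lies on chromosome 7 (ENSG00000154678.18, 31751179 to 32428131, minus strand, GRCh38). It had 265, 293 and 340 reads in the control libraries, none in the 3 shAHR#2 libraries and 0, 6 and 6 in the shAHR#3 libraries. All 6 hairpin libraries were thus at or near 0 and far from the controls. With CPM, the control mean was 15.6 ± 1.41 (SD, n = 3). With shAHR#2 the level was at least 81.0-fold lower, taking 3 counts in the shallowest library as the limit that a count of 0 allows. With shAHR#3 the fitted log2 fold change was -6.23, given as a description, since the gene was tested only because of its control level. No fold is given between the hairpins, as one group was at 0 and the other near that limit. In bulk RNA, fewer cells with a transcript and less transcript per cell cannot be told apart.

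PDE9A, a high-affinity enzyme for cyclic GMP, fell with both hairpins and fell further with shAHR#2. It had 58, 54 and 62 reads in the control libraries, 4, 3 and 1 with shAHR#2 and 19, 26 and 31 with shAHR#3, and the 3 groups did not overlap. The log2 fold change was -4.19 (SE 0.38, adjusted p = 3.11e-12) with shAHR#2 and -1.24 (SE 0.24, adjusted p = 3.38e-05) with shAHR#3. The hairpins differed by 2.95 (95% interval 2.04 to 3.85, adjusted p = 9.3e-07). The gene lies on chromosome 21 (ENSG00000160191.18, 42653621 to 42775509, plus strand).

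Further phosphodiesterases were lower with both hairpins by smaller amounts. PDE4A, a cyclic AMP-specific enzyme, fell from 41.9 ± 0.524 CPM to 27.7 ± 2.31 in the shAHR#2 libraries and 37.3 ± 2.61 in the shAHR#3 libraries (SD, n = 3 each). Its log2 fold changes were -0.59 and -0.17. Its call with shAHR#3 was lost without shAHR#3 replicate 1 (adjusted p = 0.0625) or replicate 2 (adjusted p = 0.119). PDE8B, a relative of PDE8A, fell from 6.20 ± 0.33 CPM to 3.50 ± 0.916 and 4.89 ± 0.432, with log2 fold changes of -0.84 and -0.34. Its annotated exons share 51.6% of their bases with another gene on the same strand, which makes its count uncertain. PDE8B and PDE4D lie on chromosome 5, whose 656 tested genes had a median log2 fold change of -0.48 with shAHR#2 and -0.26 with shAHR#3. Other chromosomes of members were shifted as well. The medians were -0.32 and -0.15 on chromosome 10 (CREM), -0.30 and -0.23 on chromosome 4 (PDE5A), and 0.22 and 0.17 on chromosome 12 (ADCY6 and PDE3A). The part of these shifts in the values of single members was not tested. PDE11A, which hydrolyses both cyclic nucleotides, was at 76, 81 and 82 reads in controls, 58, 40 and 37 with shAHR#2 and 70, 58 and 60 with shAHR#3. On the log2 scale it changed by -0.63 and -0.39. The calls of PDE8B and PDE11A with shAHR#3 (adjusted p = 0.0457 and 0.0434) were lost with DESeq2 (adjusted p = 0.103 and 0.107) and without each single library of the groups compared but one (shAHR#3 replicate 3 for PDE8B and shAHR#3 replicate 1 for PDE11A).

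PDE2A, a cyclic AMP and cyclic GMP hydrolase that cyclic GMP stimulates, rose with both hairpins. It had 49, 63 and 62 reads in the control libraries, 206, 165 and 151 with shAHR#2 and 85, 97 and 111 with shAHR#3. The groups did not overlap, with shAHR#2 highest and shAHR#3 between it and the control. The log2 fold change was 1.78 (SE 0.137, adjusted p = 3.4e-14) with shAHR#2 and 0.70 (SE 0.151, adjusted p = 1.49e-04) with shAHR#3. The hairpins differed by -1.08 (95% interval -1.33 to -0.83, shAHR#3 minus shAHR#2, adjusted p = 3.38e-09). PDE2A lies on chromosome 11 (ENSG00000186642.16, 72576141 to 72674591, minus strand).

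PDE3A, a cyclic AMP hydrolase that cyclic GMP inhibits, had 2, 1 and 1 reads in the control libraries. It had 13, 7 and 8 reads with shAHR#2 and 13, 14 and 12 with shAHR#3, all above the controls. Taking 3 counts in the shallowest control library as its limit, the level with shAHR#2 was at least 3.25-fold higher. For shAHR#3 the bound was at least 3.88-fold higher. The fitted difference between the hairpins, 0.23 with a 95% interval from -0.59 to 1.06, did not pass the test. Even so, PDE3A was among the lowest tested phosphodiesterases, at 0.0414 RPKM with shAHR#2 and 0.0494 with shAHR#3.

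**Figure D3:**
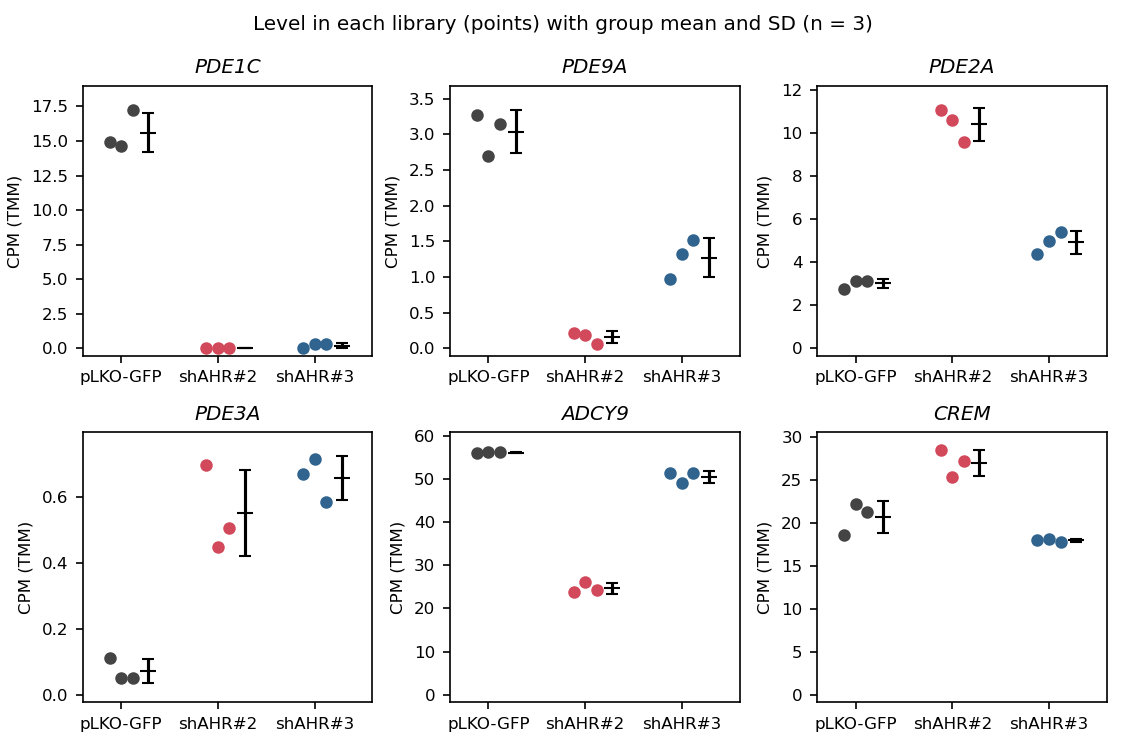
Level in CPM after TMM scaling (y axis) of 6 members in each of the 9 libraries (points, x axis by group), with the group mean and SD (n = 3) beside them. PDE1C, PDE9A, PDE2A and PDE3A separate all hairpin libraries from all control libraries, ADCY9 is far lower with shAHR#2 only, and CREM is highest with shAHR#2.

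Other phosphodiesterases that rose with both hairpins, PDE8A, PDE4B, PDE10A, PDE7B and PDE4D, did so by less than 1 on the log2 scale. PDE8A had 1798, 1872 and 1895 reads in controls, 2422, 1959 and 2036 with shAHR#2 and 2161, 2237 and 2440 with shAHR#3. Scaled to library size, all hairpin libraries were above all controls, at 111 to 130 CPM against 93.5 to 102. Its log2 fold changes were 0.40 (SE 0.0373, adjusted p = 5.04e-12) and 0.25 (SE 0.0371, adjusted p = 5.3e-07). PDE4B, the cyclic AMP-specific enzyme best known from inflammatory cells, rose by 0.70 and 0.38, and PDE10A by 0.54 and 0.37. In these 3 genes the rise was smaller with shAHR#3, and the hairpins differed (adjusted p = 5.23e-04 for PDE8A, 3.36e-04 for PDE4B and 9.16e-04 for PDE10A). PDE7B, a cyclic AMP-specific enzyme, and PDE4D went the other way, with PDE7B up by 0.32 and 0.49 and PDE4D by 0.09 and 0.26 (adjusted p of the difference 0.00424 and 1.56e-04). The small rise of PDE4D with shAHR#2 was not called without a filter on low counts (adjusted p = 0.0723), without pLKO-GFP replicate 3 (adjusted p = 0.0909) or without shAHR#2 replicate 3 (adjusted p = 0.104).

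PDE5A, the cyclic GMP-specific enzyme that sildenafil inhibits, rose with shAHR#3 only by the test. Control libraries held 101, 139 and 110 reads of it, shAHR#2 libraries 115, 120 and 118, and shAHR#3 libraries 211, 238 and 244, which stood above all others. Its log2 fold change of 0.94 with shAHR#3 passed the test (adjusted p = 8.18e-09), and that of 0.22 with shAHR#2 did not (adjusted p = 0.136). The hairpins differed by 0.72 (adjusted p = 2.37e-06). With shAHR#2 it passed without pLKO-GFP replicate 2 (adjusted p = 0.0449) and without shAHR#2 replicate 1 (adjusted p = 0.0459). PDE3B, the relative of PDE3A that insulin activates in fat cells, was called with shAHR#2 (0.36, adjusted p = 0.0349) and not with shAHR#3 (0.26, adjusted p = 0.132), and the hairpins differed by -0.10 with a 95% interval from -0.39 to 0.20. Its call with shAHR#2 was lost with DESeq2 (adjusted p = 0.0711) and without each of 4 single libraries in turn (pLKO-GFP replicate 1 or 3, shAHR#2 replicate 2 or 3). Neither PDE7A nor PDE6D passed the test, with log2 fold changes of 0.07 and -0.06 for PDE7A and 0.02 and 0.08 for PDE6D. The intervals of these 4 values lay between -0.24 and 0.25.

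Among phosphodiesterases with too few reads to test, PDE1A had 3 to 9 reads per control library, 0 to 3 with shAHR#2 and 4 to 8 with shAHR#3, and its control and shAHR#2 libraries overlapped in CPM. PDE6A, a subunit of the rod photoreceptor enzyme, had 4 to 6, 0 to 1 and 3 to 6. The control mean of PDE6A was 1.26 times the limit of 3 counts for shAHR#2. This leaves out the counting error of the few control reads, so no bound is given. PDE6B and PDE4C had at most 2 reads in a library, and PDE1B and PDE6C had none.

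Of the 10 adenylyl cyclases, 4 were tested, and with each hairpin 3 of these fell and 1 rose. Of all genes tested, 33.2% fell and 32.6% rose with shAHR#2, and 27.5% and 26.9% with shAHR#3. ADCY3, a calcium and calmodulin-sensitive form best known from olfactory neurons, was highest per length in the control at 6.87 ± 0.346 RPKM (SD, n = 3). It had 742, 926 and 888 reads in controls, 506, 399 and 428 with shAHR#2 and 619, 559 and 710 with shAHR#3. All hairpin libraries were below all controls. Its log2 fold changes were -0.74 (SE 0.0658, adjusted p = 2e-12) and -0.49 (SE 0.0625, adjusted p = 2.41e-08), and the hairpins differed by 0.25 (adjusted p = 0.00261). Its exons overlap CENPO on the opposite strand over 23.0% of their bases, and the use of strand in counting is not stated in the sources used here.

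ADCY9, a widely expressed cyclase that forskolin activates poorly, fell mainly with shAHR#2. It had 990, 1124 and 1108 reads in controls, 443, 405 and 382 with shAHR#2 and 998, 956 and 1049 with shAHR#3. The shAHR#2 libraries were at 24.6 ± 1.2 CPM against 56.0 ± 0.123 in the control, while the shAHR#3 libraries were just below the control at 50.5 ± 1.36 (SD, n = 3 each). On the log2 scale the change was -1.19 (SE 0.0553, adjusted p = 1.22e-20) with shAHR#2 and -0.15 (SE 0.0485, adjusted p = 0.00833) with shAHR#3. Between the hairpins the gap was 1.04 (95% interval 0.92 to 1.15, adjusted p = 4.87e-18). Without shAHR#3 replicate 2 the fall with shAHR#3 was not called (adjusted p = 0.0521). ADCY9 lies on chromosome 16 (ENSG00000162104.10, 3953387 to 4116442, minus strand).

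ADCY6, a form inhibited by calcium and by the inhibitory G protein, was the cyclase that rose. From 39.8 ± 1.77 CPM it went to 58.8 ± 3.44 with shAHR#2 and to 52.3 ± 3.49 in the shAHR#3 libraries (SD, n = 3 each), by log2 fold changes of 0.56 (adjusted p = 3.26e-11) and 0.39 (adjusted p = 1.34e-07). ADCY7, a form best known from blood cells, fell too (-0.24 and -0.37 on the log2 scale), but 41.8% of its exon bases overlap BRD7 on the opposite strand. Summed, the 10 cyclases stood at 22.1 ± 0.602 RPKM in control libraries, 17.8 ± 0.384 in shAHR#2 libraries and 19.9 ± 0.999 in shAHR#3 libraries (SD, n = 3 each). The share of ADCY6 in it went from 21.3% to 38.9% and 31.0%, and ADCY3 went from 31.1% to 23.1% and 24.6%. ADCY9 took 23.9%, 13% and 23.9% in the same order of groups. ADCY4, ADCY5 and ADCY10 had at most 3 reads in a library, and ADCY1, ADCY2 and ADCY8 had none, where a count of 0 allows up to 0.147 to 0.193 CPM by counting error alone.

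Of the PKA subunits, 1 of 2 catalytic and 2 of 4 regulatory ones passed the test with shAHR#2, beside 65.8% of all genes. With shAHR#3, 2 of 2 and 3 of 4 passed, beside 54.4% of all genes. None of these changes reached 1 on the log2 scale. PRKACA, a catalytic subunit, had 794, 908 and 897 reads in controls, 913, 803 and 808 with shAHR#2 and 984, 1029 and 1104 with shAHR#3. Scaled to library size it was higher in each hairpin library than in each control, with log2 fold changes of 0.16 (SE 0.0494, adjusted p = 0.00492) and 0.21 (SE 0.048, adjusted p = 2.64e-04). PRKACB, the other catalytic subunit, averaged 38.6 ± 1.12 CPM in control libraries, 39.8 ± 1.47 in shAHR#2 libraries and 27.9 ± 0.522 in shAHR#3 libraries (SD, n = 3 each). It fell by 0.47 with shAHR#3 (adjusted p = 1.06e-08) and was at 0.05 with shAHR#2 (adjusted p = 0.474), and the difference of -0.52 between the hairpins passed the test (adjusted p = 2.66e-09). Of the catalytic subunit level per length, PRKACA took 52.2% in control, 54.2% in shAHR#2 and 63.7% in shAHR#3 libraries.

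PRKAR1A, the type I regulatory subunit and the member with the highest level per length, averaged 30.7 ± 1.12 RPKM in control libraries, 30.0 ± 0.149 in shAHR#2 libraries and 28.9 ± 0.745 in shAHR#3 libraries (SD, n = 3 each). It had 6598, 8024 and 7612 reads in controls, 7083, 5861 and 5958 with shAHR#2 and 7215, 7156 and 7230 with shAHR#3. In CPM the shAHR#2 libraries lay within the control range and the shAHR#3 libraries just below it. The change was -0.03 (adjusted p = 0.313) with shAHR#2 and -0.09 (SE 0.0278, adjusted p = 0.00697) with shAHR#3. The latter call was lost without pLKO-GFP replicate 2 (adjusted p = 0.0788). Between the hairpins the difference of -0.06 was not called (adjusted p = 0.109). PRKAR2A, a type II subunit, rose by 0.20 with shAHR#2 (adjusted p = 2.28e-07) and was at -0.01 with shAHR#3 (adjusted p = 0.767), with a difference of -0.21 (adjusted p = 1.87e-07). PRKAR1B, a form best known from the brain, fell with both (-0.32 and -0.48). PRKAR2B was at 69, 37 and 72 reads in controls, 51, 30 and 37 with shAHR#2 and 38, 33 and 33 with shAHR#3, so its control replicate 2 lay among the hairpin libraries. It fell with shAHR#3 (log2 fold change -0.83, adjusted p = 0.00331) and passed no test with shAHR#2 (-0.40, adjusted p = 0.128). Without pLKO-GFP replicate 2 the value with shAHR#2 was -0.68 (adjusted p = 0.00668). Between the hairpins the PRKAR2B difference of -0.43 was not called (adjusted p = 0.186).

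**Figure D4:**
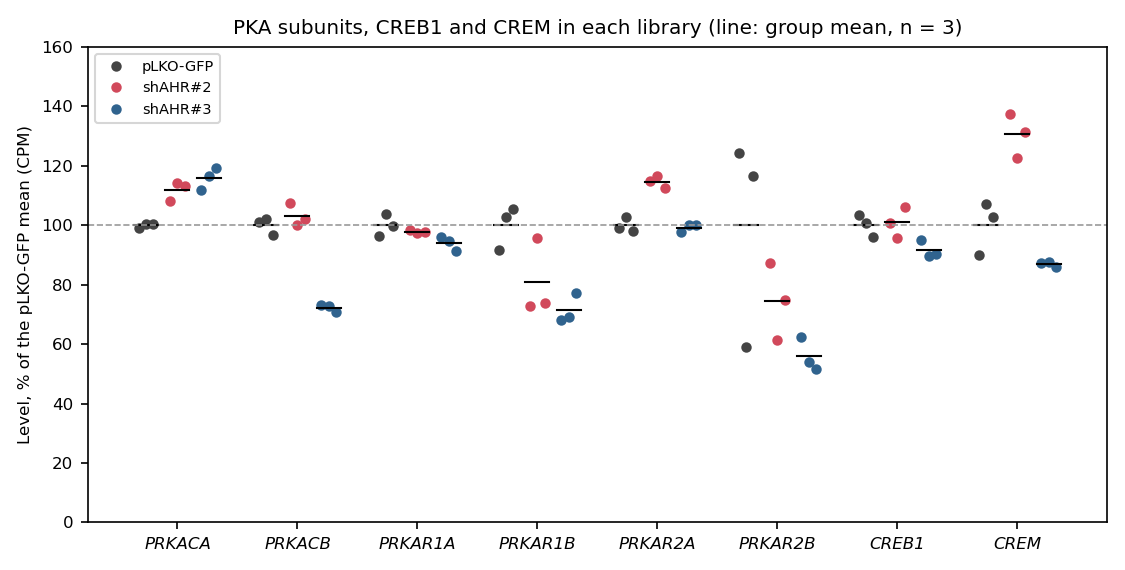
Level of the PKA subunits, CREB1 and CREM (x axis) in each library as a percent of the pLKO-GFP mean in CPM (y axis), with a line at each group mean (n = 3). PRKACB is low with shAHR#3 only, CREM is high with shAHR#2 only, and the control libraries of PRKAR2B are widely spread.

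CREB1, the cyclic AMP response element binding protein, had 1478, 1627 and 1530 reads in controls, 1518, 1204 and 1356 with shAHR#2 and 1492, 1415 and 1492 with shAHR#3. In CPM the shAHR#2 and control libraries overlapped, and the shAHR#3 libraries were below both groups. Its change on the log2 scale was 0.01 (adjusted p = 0.781) with shAHR#2 and -0.12 (SE 0.0425, adjusted p = 0.0124) with shAHR#3. The latter was not called without pLKO-GFP replicate 1 (adjusted p = 0.0734) or shAHR#3 replicate 2 (adjusted p = 0.0501).

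CREM, the cyclic AMP response element modulator, whose inducible short form ICER represses such elements, was the member called in opposite directions. It had 330, 445 and 420 reads in controls, 531, 396 and 430 with shAHR#2 and 351, 354 and 365 with shAHR#3. In CPM the control libraries were at 18.6, 22.2 and 21.3, the shAHR#2 libraries at 28.5, 25.4 and 27.2, and the shAHR#3 libraries at 18.1, 18.1 and 17.8, so the groups did not overlap, although control replicate 1 was close to the shAHR#3 libraries. The log2 fold change was 0.38 (SE 0.0744, adjusted p = 2.51e-05) with shAHR#2 and -0.21 (SE 0.077, adjusted p = 0.0225) with shAHR#3. The hairpins differed by -0.59 (95% interval -0.74 to -0.44, adjusted p = 3.43e-08). The fall with shAHR#3 was not called without pLKO-GFP replicate 2 (-0.15, adjusted p = 0.147) or replicate 3 (-0.19, adjusted p = 0.0763). CREM lies on chromosome 10 (ENSG00000095794.19, 35126791 to 35212958, plus strand), and gene-level counts do not separate ICER from its longer forms.

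Other genes of the pathway were taken from 5 lists of general knowledge and counted in the same fit. Of 16 tested receptors and G proteins upstream of the cyclases, 6 were higher (37.5%) and 5 lower (31.2%) with shAHR#2, beside 32.6% and 33.2% of all genes, and 2 were higher (12.5%) and 5 lower (31.2%) with shAHR#3, beside 26.9% and 27.5%. VIPR1, a receptor for vasoactive intestinal peptide that couples to the stimulatory G protein, had 329 to 413 reads in controls, 68 to 114 with shAHR#2 and 159 to 215 with the other hairpin (log2 fold changes -1.91 and -1.06, adjusted p = 2.07e-17 and 1.17e-11). GNAS, the stimulatory G protein itself, was at -0.12 and -0.13 on the log2 scale, both called, and was named after its values were seen. The medians of the list were -0.01 and 0.02. ADRB1 had 7, 8 and 5 reads in controls and 21, 13 and 12 with shAHR#3, and passed the filter only through the hairpin libraries. ADORA1 had 14, 23 and 26 reads in controls and 5, 5 and 9 with shAHR#3, and would not have passed without the control libraries. A difference was thus built into the entry of both, and both stay in the counts of the list.

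Of 17 tested PKA inhibitors, anchoring proteins and other cyclic AMP effectors, 9 were higher (52.9%) and 3 lower (17.6%) with shAHR#2, beside 32.6% and 33.2% of all genes. With shAHR#3, 8 were higher (47.1%) and 2 lower (11.8%), beside 26.9% and 27.5%. The medians were 0.20 and 0.22. RAPGEF4, with 10, 10 and 14 reads in controls, would not have passed the filter without hairpin libraries, and it stays in these counts. PKIA, a peptide inhibitor of the PKA catalytic subunit, had 101, 121 and 114 reads in controls, 667, 578 and 603 with shAHR#2 and 269, 224 and 242 with shAHR#3. Its rise was 2.66 (SE 0.0891, adjusted p = 4.36e-25) and 1.08 (SE 0.102, adjusted p = 1.86e-11) on the log2 scale, and it was smaller with shAHR#3 by 1.58 (difference -1.58, adjusted p = 3.61e-19). PKIB, the second inhibitor, rose by 1.96 and 0.98, and PKIG, the third, fell by 0.60 with shAHR#2 and was at -0.19 with shAHR#3 (not called). PKIB and PKIG were chosen after their values were seen.

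On the cyclic GMP side, 2 of 6 tested genes were higher (33.3%) and none lower with shAHR#2, beside 32.6% and 33.2% of all genes, and 3 were higher (50%) and 1 lower (16.7%) with shAHR#3, beside 26.9% and 27.5%. NPR1, a natriuretic peptide receptor that makes cyclic GMP, had 13, 28 and 15 reads in controls and 72 to 82 in the hairpin libraries (log2 fold changes 2.22 and 1.98, adjusted p = 4.28e-11 and 1.36e-09). The difference between the hairpins, -0.24, did not pass the test (adjusted p = 0.282). Of 13 cofactors and relatives of CREB, 7 were higher (53.8%) and 4 lower (30.8%) with shAHR#2 and 5 higher (38.5%) and 2 lower (15.4%) with shAHR#3, beside the same shares of all genes. CREB5, a relative that binds similar elements, had 155 to 194 reads in controls, 59 to 78 with shAHR#2 and 48 to 66 with the other hairpin. Its log2 fold changes were -1.07 (adjusted p = 3.32e-08) and -1.68 (adjusted p = 3.56e-12).

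Of 17 tested textbook CREB target genes, 8 were higher (47.1%) and 5 lower (29.4%) with shAHR#2, beside 32.6% and 33.2% of all genes. With shAHR#3, 10 were higher (58.8%) and 3 lower (17.6%), beside 26.9% and 27.5%. The medians were 0.20 and 0.35. NR4A1, an immediate early nuclear receptor, had 8, 13 and 6 reads in controls, 19, 17 and 22 with shAHR#2 and 22, 16 and 36 with shAHR#3. Its fitted log2 fold changes, 1.29 and 1.39, are given as a description, since it passed the filter only through the hairpin libraries. It stays in the counts of the list. Many signals other than cyclic AMP also drive these target genes. The median absolute log2 fold change of the members was 0.39 with shAHR#2 and 0.37 with shAHR#3, against 0.32 and 0.23 over all genes tested.

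**Figure D5:**
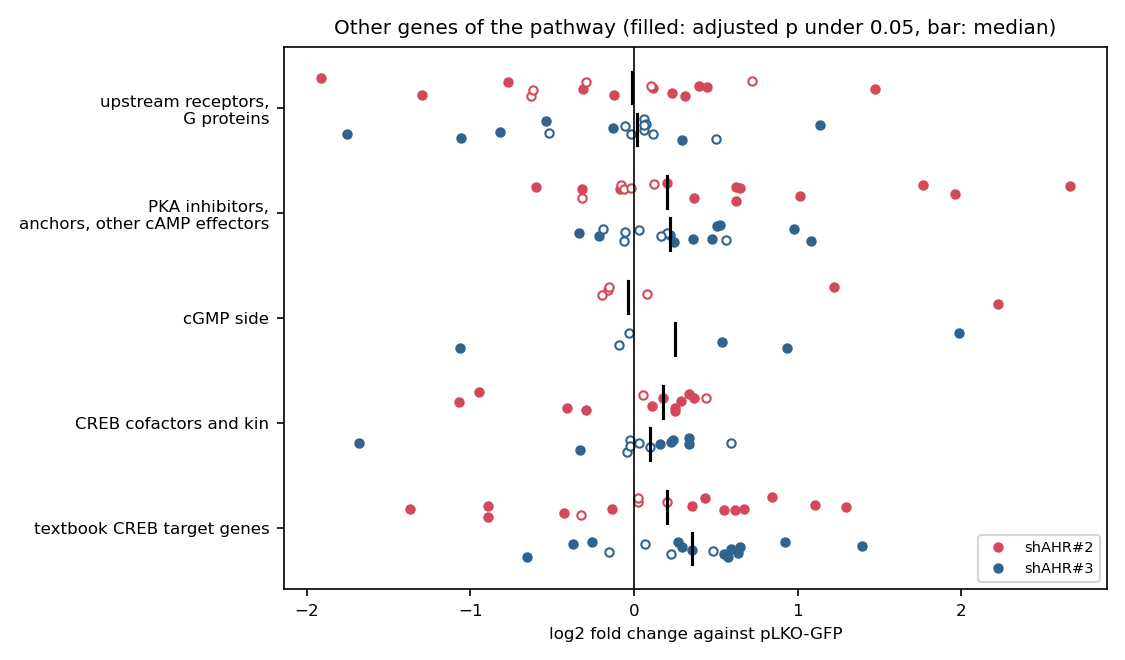
Log2 fold change against pLKO-GFP (x axis) of the tested genes in 5 further lists of the pathway (y axis) with shAHR#2 in red and shAHR#3 in blue. Filled points passed an adjusted p of 0.05 and the bar is the median of the list, which lies between -0.04 and 0.35 throughout.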

How the data were processed

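RNA sequencing of 9 libraries of MDA-MB-231 cells was analysed (pLKO-GFP, shAHR#2 and shAHR#3, 3 each, grouped by the labels, which number the hairpins otherwise than the study's methods do). The authors made stranded mRNA libraries, sequenced single ends, aligned them with STAR to GRCh38.p13, and deposited raw counts per gene. The submitters' processing notes also name FastQC, featureCounts and Subread. The annotation release and strand setting are not given in the sources used here, so counts of overlapping genes are uncertain. Levels and tests were computed from these counts with R 4.3.3 and edgeR 4.0.16. Genes passing filterByExpr (minimum count 10, minimum total 15) were scaled by TMM and tested once over all libraries with the quasi-likelihood test, with Benjamini-Hochberg adjustment over 14274 genes and a threshold of 0.05. SEs were derived from the fold change and F, intervals are 95%, and limits for values near 0 use 3 counts per library and cover counting error only. These limits leave out the counting error of the group set against them. Lengths and positions come from GENCODE release 44, in which 60507 of 60649 identifiers were found. Every adjusted p in the text is from edgeR unless DESeq2 1.42.0 is named.

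The members and gene lists were chosen with earlier results of these data known. Members were shown by library where they passed with a log2 fold change of at least 1, were called in opposite directions or were highest per length in their role, and list genes were named where both hairpins passed by at least 1 in the same direction. PDE5A, PDE11A and PRKAR2B were also shown by library after their values were seen. 1 further marker of other cell types is not reported here. The fits were tested on simulated data. Alternatives were DESeq2, edgeR with DESeq2 size factors, a minimum mean of 50 counts, no filter on counts, only the groups compared, a replicate block, leaving out each library, and an added fold threshold. Counts without PDE1C and PDE3A were added after the data were seen.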

Additional observations from a re-analysis of the deposited data

Results flagged for a closer look

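In 4 members, not counting PDE1C, which had no read with shAHR#2 and at most 6 with shAHR#3, the hairpins differed from each other by the test of that difference and by at least 1 on the log2 scale or in the direction of their changes. ADCY9 was higher with shAHR#3 than with shAHR#2 by 1.04 on the log2 scale, PDE9A was higher by 2.95, and PDE2A was lower (-1.08), each having moved the same way with both hairpins against the control. CREM was lower with shAHR#3 than with shAHR#2 (-0.59), having moved in opposite directions against the control. AHR itself differed between the hairpins by 0.19, with more AHR left with shAHR#3. The part of this in the 4 differences was not tested.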

How the results depend on the processing

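The number of members past the threshold stayed within 1.5 times its value under every alternative but the added fold threshold of 1, which left 5 members with shAHR#2, 3 with shAHR#3 and 4 between the hairpins, or 3, 1 and 3 with PDE1C and PDE3A left out as well (chosen after the data were seen). Without single libraries these numbers ranged from 19 to 23 with shAHR#2, 19 to 24 with shAHR#3 and 17 to 18 between the hairpins. Values that changed sign without a single library were near 0 and not called. Without single libraries CREB1 with shAHR#2 ranged from -0.019 to 0.053, PDE6D with shAHR#2 from -0.031 to 0.080, PDE7A with shAHR#2 from -0.0027 to 0.13, and PRKAR2A with shAHR#3 from -0.026 to 0.0088. Correlations of deviations were 0.003 to 0.058 between libraries of equal replicate number and -0.068 to 0.023 between the others, so any pairing by number was weak. With the replicate number as a block 21 members passed with shAHR#2, and no call of a member changed. DESeq2 lost the calls of PDE3B with shAHR#2 and of PDE8B and PDE11A with shAHR#3. Without a filter on low counts the same calls and that of PDE4D with shAHR#2 were lost. Between the hairpins, ADCY6 was not called without shAHR#2 replicate 2 or shAHR#3 replicate 2, CREB1 without shAHR#2 replicate 3, and PDE8B without shAHR#2 replicate 1 or shAHR#3 replicate 3, while ADCY7 was called without shAHR#2 replicate 3. PDE3B with shAHR#3 was called without pLKO-GFP replicate 2. The cause was not tested. Depth limits the members with few reads, PDE3A and PDE9A among them.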

Other observations

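Some textbook CREB target genes went in opposite directions with the hairpins. These were chosen after their values were seen. FOS, a component of the AP-1 transcription factor, had 61, 66 and 64 reads in controls, 21, 18 and 25 with shAHR#2 and 106, 78 and 115 with shAHR#3, log2 fold changes of -1.37 and 0.60 with a difference of 1.97 (adjusted p = 4.27e-10). AREG, an epidermal growth factor receptor ligand, went by -0.89 and 0.27 (difference 1.16, adjusted p = 2.15e-20). STC1, a secreted glycoprotein, went by 0.84 and -0.66 (difference -1.49, adjusted p = 6.06e-24).

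Genes that lie within 1 Mb of PDE1C, PDE9A, PDE3A, PDE2A, ADCY9 and PDE8B were counted after the data were seen. Of all genes tested, 33.2% were lower and 32.6% higher with shAHR#2, and 27.5% and 26.9% with shAHR#3. Of 13 tested neighbours of PDE1C, 10 were lower and 1 higher with shAHR#2, and 8 were lower and none higher with shAHR#3, with medians of -0.50 and -0.24. The lowest of these neighbours was at -1.83 and -1.38. Of 19 neighbours of PDE9A, 3 were lower and 8 higher with shAHR#2, and 1 was lower and 10 higher with shAHR#3. Of 10 neighbours of PDE3A, none was lower and 8 were higher with shAHR#2 and 6 with shAHR#3. Of 24 neighbours of PDE2A, 11 were lower and 6 higher with shAHR#2, and 9 and 4 with shAHR#3, although PDE2A itself rose. Of 46 neighbours of ADCY9, 13 were lower and 9 higher with shAHR#2, and 10 and 6 with shAHR#3. Of 12 neighbours of PDE8B, 9 were lower and 1 higher with shAHR#2, and 10 and 1 with shAHR#3. Whether the change of these members belongs to a change of their surroundings was not tested.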
